A study of Homo sapiens with 2 samples.

Results

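Vimentin, caldesmon and 8 actin-binding or contractile proteins were followed in UMUC3, a human bladder carcinoma line with mesenchymal traits, by the messenger RNA of 10 genes out of the 33538 counted. The genes were VIM, CALD1, TAGLN, TAGLN2, ACTA2, TPM1, TPM2, TPM4, MYL9 and ACTN1. They were taken by symbol, and their choice was made with results from these same cells known, so every value below is a description and no test was run. The knockdown library came from UMUC3 cells with a knockdown of GANAB, the catalytic subunit of the glucosidase that trims glucose from new N-glycans in the endoplasmic reticulum, and the other library from control UMUC3 cells.

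Both groups of cells had been placed in the bladder of C57 nude mice, which lack T cells, and left to grow for 14 days before single-cell 3' RNA libraries were made. There was 1 library per group, and the labels give neither the number of mice behind each library, nor the knockdown agent, nor whether the cells were 1 clone. Differences are therefore between these libraries, and all intervals are 95% intervals of counting error only. Levels are counts of unique molecular identifiers (UMIs, which mark single captured RNA molecules) summed over cells and given as CPM, the number for each 1000000 UMIs of the same cells. They depend on each gene's own 3' end, so levels are not compared between genes.

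Vimentin builds the intermediate filaments of mesenchymal cells and is a common marker of epithelial cells that have taken on mesenchymal traits. Actin filaments give a cell its tension: tropomyosins lie along them, caldesmon and the transgelins bind them, alpha-actinin crosslinks them, and myosin with its regulatory light chains pulls on them. Many of these genes are transcribed by SRF with MRTF cofactors, which respond to free actin, or by TEAD factors with YAP, and their smooth muscle members (ACTA2, TAGLN, MYL9) mark bladder muscle and activated fibroblasts.

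Cells were barcodes with at least 15000 UMIs of which at most 20% were mitochondrial: 2672 knockdown cells with a median of 40933 UMIs, and 4385 control cells with a median of 44046. GANAB stood at 42.3 CPM in knockdown cells and 127 CPM in control cells, a log2 ratio of -1.58 (-1.62 to -1.54). The long noncoding RNA TMEM132D-AS1 divided the cells: 1942 knockdown cells (72.7%) and 241 control cells (5.50%) held at least 2 of its UMIs, and the 10 genes are also given within these marked cells. Cells with 0 or 1 marker UMIs are called unmarked. GANAB was at 38.1 CPM in marked knockdown cells and 130 CPM in marked control cells. The libraries shared 4 called barcodes. Cells scored as S or G2/M phase made up 28.1% of knockdown cells and 48.1% of control cells, and 27.3% and 46.5% of the marked cells.

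A gene counted as higher or lower at 1.5-fold or more (called the mark below) when the higher of the groups reached 10 CPM, which is no test. Of the 9 genes measured over all called cells, 3 were higher in the knockdown (VIM, TAGLN and TPM1) and 2 lower (CALD1 and TPM2). Among all 7872 genes measured, 7.69% were higher and 10.4% lower, 18.1% in either direction. The median log2 ratio was 0.09 over the 9 genes and -0.07 over all genes. The rule that chose the genes used this contrast, so nothing is read from the count. MYL9 was the gene not measured.

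**Figure D1:**
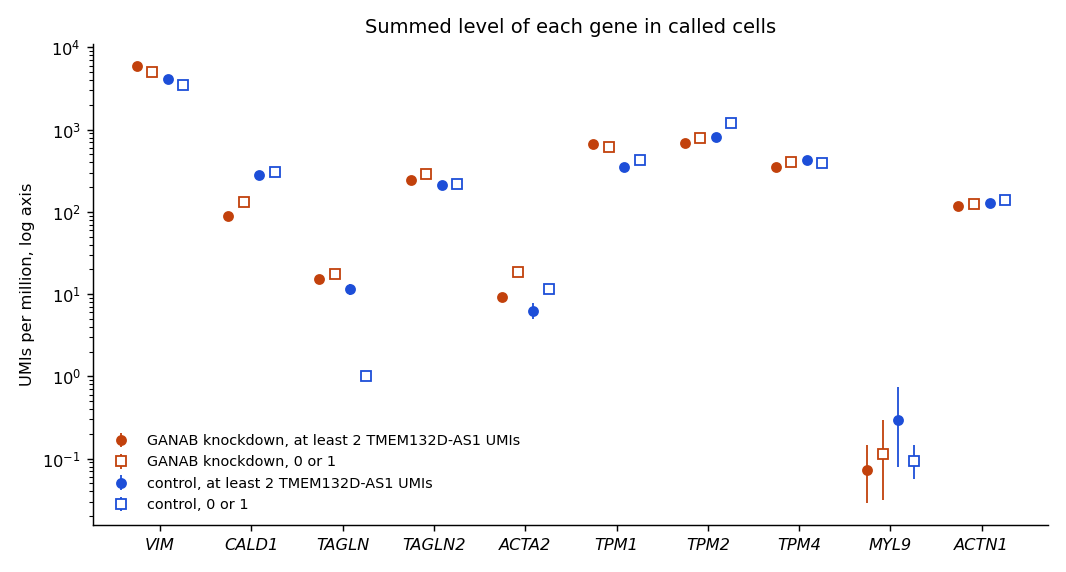
Summed level of each gene in CPM (log axis) in the marked and unmarked cells of each library, with exact Poisson intervals as bars on the points. CALD1 is at 88.1 and 132 CPM in marked and unmarked knockdown cells, and at 278 and 309 CPM in marked and unmarked control cells. TAGLN is low only in the unmarked control cells, at 1.02 CPM.

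For VIM, CALD1, TPM1 and TPM2, the genes with differences of at least 1.5-fold and more than 50 CPM in both libraries, a promoter window is shown to give the sequence at an annotated start; which start the counted messages used is not known from 3' counts. Windows are from RefSeq on GRCh38.p14, run 5' to 3' on the gene's strand and span 250 bases before to 50 after a start. They were found for 8 of the 10 genes, the exceptions being TAGLN and MYL9. Capitals mark CATTCC, the core sequence bound by TEAD factors, on either strand.

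VIM, chr10:17227991-17228290, plus strand: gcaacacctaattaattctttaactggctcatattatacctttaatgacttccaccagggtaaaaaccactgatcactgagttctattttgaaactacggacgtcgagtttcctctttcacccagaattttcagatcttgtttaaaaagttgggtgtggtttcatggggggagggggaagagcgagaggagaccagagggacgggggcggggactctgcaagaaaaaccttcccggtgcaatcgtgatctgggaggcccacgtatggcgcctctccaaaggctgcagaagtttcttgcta
CALD1, chr7:134745217-134745516, plus strand: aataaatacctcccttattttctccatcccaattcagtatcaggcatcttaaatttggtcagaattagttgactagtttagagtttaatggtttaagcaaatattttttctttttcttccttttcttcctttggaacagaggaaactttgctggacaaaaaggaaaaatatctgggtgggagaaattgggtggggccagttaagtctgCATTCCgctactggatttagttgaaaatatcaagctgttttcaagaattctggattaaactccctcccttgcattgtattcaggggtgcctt
TPM1, chr15:63048239-63048538, plus strand: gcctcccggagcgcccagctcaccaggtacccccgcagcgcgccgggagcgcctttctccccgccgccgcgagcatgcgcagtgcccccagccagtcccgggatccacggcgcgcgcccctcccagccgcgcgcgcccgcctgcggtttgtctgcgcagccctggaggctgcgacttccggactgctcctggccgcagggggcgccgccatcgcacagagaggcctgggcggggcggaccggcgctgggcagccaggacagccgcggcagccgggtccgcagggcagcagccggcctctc
TPM2, chr9:35690007-35690306, minus strand: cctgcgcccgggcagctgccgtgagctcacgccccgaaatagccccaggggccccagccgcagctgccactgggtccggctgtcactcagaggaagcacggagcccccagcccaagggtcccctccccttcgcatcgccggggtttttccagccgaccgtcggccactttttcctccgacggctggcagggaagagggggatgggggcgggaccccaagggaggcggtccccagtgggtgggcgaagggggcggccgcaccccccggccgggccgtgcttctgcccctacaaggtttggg

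The CALD1 window printed held CATTCC at -42 to -37 and was 37.0% G and C. Of the other CALD1 windows, 1 held the reverse complement at -194 to -189 and 2 held no match, and TPM2 had 1 further window, also with none. The TPM1 and TPM2 windows were 78.3% and 72.3% G and C, and the VIM window 48.0%. None of these windows held a CArG box, the element that SRF binds. Among the 8 genes it was found in 1 TPM4 window, at -173 to -164, and in 1 ACTN1 window, at -171 to -162. Searching both strands of all 35116 promoter windows found the CArG box in 1.29%, CATTCC in 14.0%, GGGCGG in 45.0% and TATAAA in 11.5%. A match or its absence describes these letters in this window and nothing about a factor.

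VIM (chromosome 10, 17228259 to 17237593, GRCh38), the intermediate filament gene, was at 5697 CPM (5684 to 5710) in knockdown cells and 3548 CPM (3540 to 3556) in control cells, a log2 ratio of 0.68 (0.68 to 0.69). The level was 1.61-fold higher in the knockdown. In marked cells it was 5934 CPM in the knockdown and 4103 CPM in the control, a log2 ratio of 0.53 (0.52 to 0.54), which is under the 1.5-fold mark. In cells with 0 or 1 marker UMIs it was 5036 and 3510 CPM, a log2 ratio of 0.52. The gap was of about the same size on either side of the marker, and marked cells stood above the others within each library. The order was marked knockdown, other knockdown, marked control and other control cells, with no overlap of the counting intervals.

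The higher VIM level was spread over many cells. After each cell was thinned to 15000 UMIs, the median was 69 VIM UMIs in knockdown cells (quartiles 47 and 102) and 48 in control cells (quartiles 36 and 61). The 90th percentile of control cells, 78 UMIs, was exceeded by 40.6% of knockdown cells (38.7 to 42.5) and 9.83% of control cells. Their 99th percentile, 126 UMIs, was exceeded by 14.0% of knockdown cells and 0.98% of control cells. Within the marked cells, 43.0% of knockdown and 22.4% of control cells passed 78 UMIs. VIM was also higher in the knockdown in each phase, at 5515, 5414 and 6559 CPM in G1, S and G2/M knockdown cells and 3432, 3486 and 3829 CPM in the control cells of these phases.

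**Figure D2:**
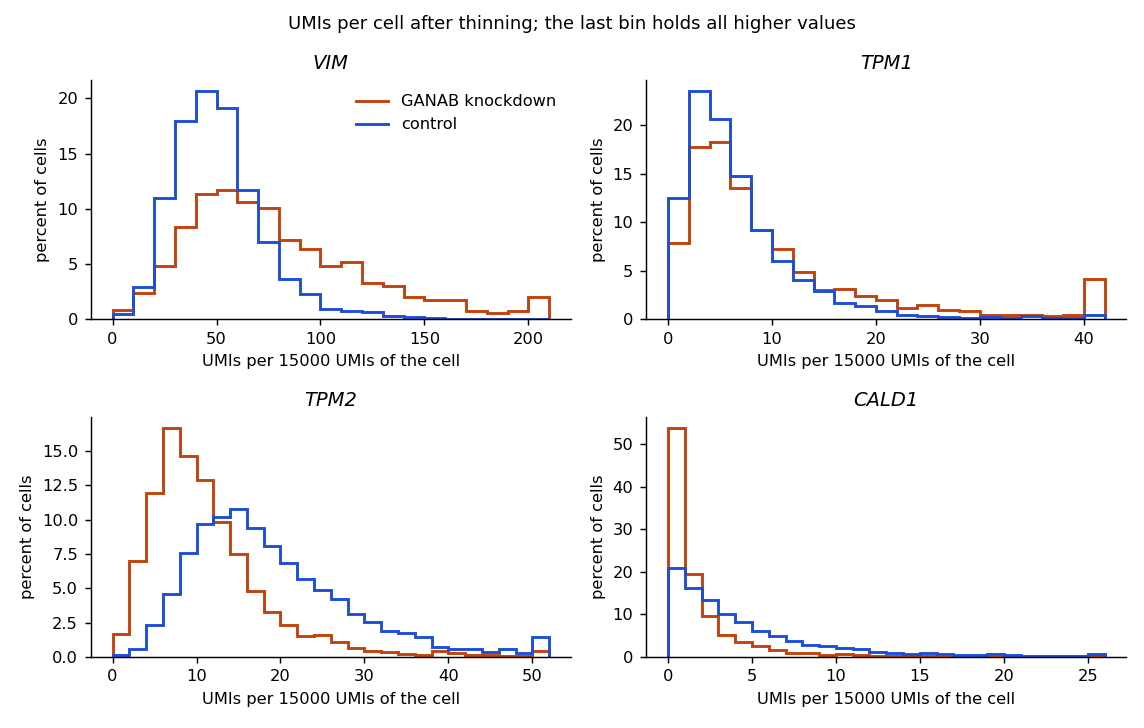
Percent of cells by UMIs per cell after thinning to 15000 UMIs, for knockdown and control cells, with the last bin holding all higher values. The knockdown distribution of VIM is wider with a median of 69 against 48, and a CALD1 UMI is found in 46.3% of knockdown cells against 79.0% of control cells.

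CALD1 (chromosome 7, 134744252 to 134970728), which encodes caldesmon, an actin and tropomyosin binder that restrains myosin, differed most in the downward direction among the measured genes. It was at 99.6 CPM (97.9 to 101) in knockdown cells and 307 CPM (304 to 309) in control cells, a log2 ratio of -1.62 (-1.65 to -1.60). The level was 3.08-fold lower in the knockdown. In marked cells it was 88.1 CPM in the knockdown and 278 CPM in the control, a log2 ratio of -1.66 (-1.71 to -1.60). In cells with 0 or 1 marker UMIs it was 132 and 309 CPM, a log2 ratio of -1.23. CALD1 was thus lower in the knockdown on both sides of the marker, and the marker itself made little difference among control cells (log2 ratio -0.15, marked over other cells). Among knockdown cells the marked ones were lower, with a log2 ratio of -0.58 (-0.63 to -0.53), just under the mark.

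At 15000 UMIs per cell, 46.3% of knockdown cells (44.4 to 48.2) and 79.0% of control cells (77.8 to 80.2) had a CALD1 UMI; unthinned, the shares were 63.5% and 89.99%. More than 10 UMIs, the 90th percentile of control cells, were held by 1.61% of knockdown and 9.26% of control cells. CALD1 varied with phase in both libraries: it was 84.3, 146 and 96.6 CPM in G1, S and G2/M knockdown cells, against 239, 369 and 339 CPM in control cells. It was lowest in G1 in both libraries, the phase that held more of the knockdown cells. Among marked G1 cells alone it was 81.8 CPM in the knockdown and 189 CPM in the control, a log2 ratio of -1.21, a smaller difference that was still past the mark. Barcodes of 1 to 100 UMIs, taken here as RNA outside cells, showed the same order: 78.2 CPM in the knockdown and 250 CPM in the control library.

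The tropomyosins, coiled-coil proteins that line actin filaments and govern myosin's access to them, differed from each other in direction. TPM1 (chromosome 15, 63042632 to 63071915) was at 657 CPM (653 to 662) in knockdown cells and 423 CPM (420 to 426) in control cells, a log2 ratio of 0.64 (0.62 to 0.65). In marked cells it was 672 and 348 CPM, a log2 ratio of 0.95 (0.91 to 0.99), larger than over all cells. Marked control cells were below the other control cells, at 348 CPM against 428 CPM. A long upper tail went with it: more than 34 TPM1 UMIs of 15000 were held by 5.35% of knockdown cells (4.53 to 6.27) and 0.84% of control cells (0.59 to 1.16). Of the 241 marked control cells none did, which allows a share of up to 1.52%, while 5.61% of marked knockdown cells did.

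TPM2 (chromosome 9, 35681992 to 35690121) was lower in the knockdown, at 716 CPM (711 to 720) in knockdown cells and 1166 CPM (1162 to 1171) in control cells, a log2 ratio of -0.70 (-0.72 to -0.69). Per 15000 UMIs the median cell held 9 TPM2 UMIs in the knockdown and 16 in the control. In marked cells the levels were 687 and 807 CPM, a log2 ratio of -0.23 (-0.26 to -0.20), well under the mark. In cells with 0 or 1 marker UMIs they were 794 and 1191 CPM, a log2 ratio of -0.58. The difference was thus smaller among marked cells, and marked control cells had 807 CPM against 1191 CPM in other control cells.

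TPM4 (chromosome 19, 16067021 to 16103005), a tropomyosin of non-muscle cells, was nearly level at 367 CPM in knockdown and 399 CPM in control cells, a log2 ratio of -0.12. In marked cells it was 354 and 425 CPM (-0.26). TPM1 and TPM4 differed between phases in opposite directions in both libraries. TPM1 was 783, 521 and 417 CPM in G1, S and G2/M knockdown cells and 505, 383 and 338 CPM in control cells, while TPM4 was 336, 395 and 433 CPM and 368, 387 and 467 CPM. TPM2 followed TPM1, at 750, 704 and 622 CPM in the knockdown and 1422, 1018 and 932 CPM in the control.

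The transgelins, small calponin-like proteins on actin bundles, also parted. TAGLN (chromosome 11, 117199321 to 117204782), the smooth muscle form, was at 15.96 CPM (15.3 to 16.7) in knockdown cells and 1.69 CPM (1.52 to 1.87) in control cells, 9.47-fold higher and a log2 ratio of 3.24 (3.08 to 3.41). In marked cells it was 15.4 CPM (14.6 to 16.2) in the knockdown and 11.4 CPM (9.69 to 13.3) in the control, a log2 ratio of 0.43 (0.19 to 0.68). Unmarked knockdown cells had it too, at 17.6 CPM, against 1.02 CPM in unmarked control cells, so of the 4 classes of cells only the unmarked control cells were low. Within G1 the marked cells were at 13.4 CPM in the knockdown and 16.5 CPM in the control, the opposite order, with a log2 ratio of -0.30 (-0.61 to 0.03). Barcodes of 1 to 100 UMIs were at 27.3 CPM in the knockdown and 7.03 CPM in the control, above the called cells of each library.

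TAGLN was held by few cells. At 15000 UMIs per cell, 8.95% of knockdown cells (7.89 to 10.1) and 1.30% of control cells (0.99 to 1.68) had a TAGLN UMI, and unthinned 17.5% and 3.95%. In marked cells the thinned shares were 8.60% in the knockdown and 9.13% in the control, with intervals that overlap. The 10 cells with most held 29.6% of all TAGLN UMIs in the knockdown and 40.4% in the control. A single control cell held 62 of 361, and without it the control level was 1.40 CPM. The closest relative, TAGLN2 (chromosome 1, 159918107 to 159925732), the form of non-muscle cells, differed little, at 252 CPM in the knockdown and 219 CPM in the control (log2 ratio 0.20), and at 240 and 210 CPM in marked cells (0.19). TAGLN2 was highest in G2/M in both libraries, at 360 CPM in knockdown and 266 CPM in control cells, against 199 and 186 CPM in G1.

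In knockdown cells with TAGLN, the levels of ACTA2, CALD1, the tropomyosins and ACTN1 were higher, and that of TAGLN2 was not. In the 109 knockdown cells with at least 2 TAGLN UMIs of 15000, against the 2433 with none, TPM1 was at 1938 CPM against 590 CPM and CALD1 at 359 CPM against 85.8 CPM. TPM2 was at 1392 CPM against 672 CPM, TPM4 at 615 CPM against 354 CPM and ACTN1 at 188 CPM against 115 CPM. VIM was at 6395 CPM against 5657 CPM, and TAGLN2 at 242 CPM against 251 CPM. The widest gap was that of ACTA2 after TAGLN itself, at 99.6 CPM against 7.81 CPM. The single knockdown cell with 262 ACTA2 UMIs, described below, was not left out of this split. In the control library CALD1 was at 375 CPM in the 12 cells with at least 2 TAGLN UMIs, 430.0 CPM in the 45 with 1 and 305 CPM in the 4328 with none. TPM1 was at 750.0, 436 and 422 CPM in these control cells, and ACTA2 at 71.9, 15.9 and 10.8 CPM. Of the 109 knockdown cells, 66.1% were marked and 21.1% were cycling, against 73.0% and 28.4% of the 2433.

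**Figure D3:**
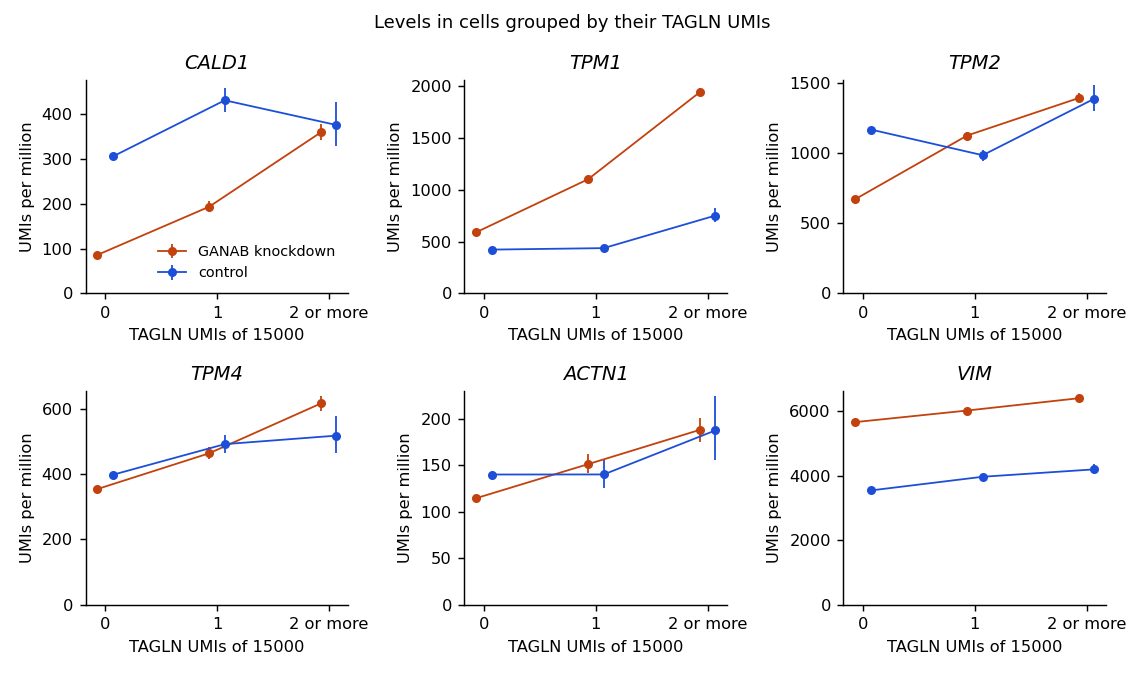
Levels of other actin-binding genes and VIM in CPM, in cells grouped by their TAGLN UMIs of 15000 (0, 1, 2 or more), for knockdown and control cells with exact Poisson intervals. CALD1 is at 85.8, 193 and 359 CPM over the groups in knockdown cells, and at 305, 430.0 and 375 CPM in control cells.

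ACTA2 (chromosome 10, 88935074 to 88991339), the smooth muscle actin of muscle and activated fibroblasts, was at 11.8 CPM (11.2 to 12.4) in knockdown cells and 11.1 CPM (10.6 to 11.5) in control cells, a log2 ratio of 0.09 (-0.01 to 0.18), and the intervals overlap. A single unmarked knockdown cell with 17541 UMIs held 262 of the 1561 ACTA2 UMIs and 200 UMIs of the smooth muscle and pericyte list. Without it the knockdown level was 9.79 CPM. In marked cells ACTA2 was at 9.29 CPM in the knockdown and 6.29 CPM in the control, both under 10 CPM and not counted. Barcodes below the cell limit were far richer in it. Those of 1 to 100 UMIs were at 230 CPM in the knockdown and 80.2 CPM in the control, which is above the level in the cells.

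MYL9, the regulatory light chain of smooth muscle and non-muscle myosin (chromosome 20, 36541484 to 36551447), was nearly absent, with 11 UMIs in knockdown cells and 23 in control cells, 0.083 and 0.11 CPM. Barcodes of 1 to 100 UMIs had 2.97 and 1.61 CPM. MYL9, ACTA2 and TAGLN were lower in these cells than in the barcodes below the cell limit in both libraries, which was not so of VIM or CALD1. TPM2 was lower in cells than in every range below the limit in the knockdown library only. Knockdown barcodes of 1 to 100, 500 to under 2000 and 2000 to under 15000 UMIs had 1068, 1119 and 1135 CPM. Knockdown cells had 716 CPM. In the control library these ranges had 1256, 987 and 1177 CPM, against 1166 CPM in cells. TPM1 had 668, 781 and 845 CPM in the knockdown ranges and 657 CPM in knockdown cells, with overlapping intervals at 1 to 100 UMIs. Control TPM1 was 401, 377 and 409 CPM in the ranges and 423 CPM in cells. ACTN1 (chromosome 14, 68874143 to 68979440), the non-muscle alpha-actinin that crosslinks actin, was at 119 CPM in knockdown and 140 CPM in control cells, a log2 ratio of -0.24, and at 117 and 129 CPM in marked cells (-0.14).

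**Figure D4:**
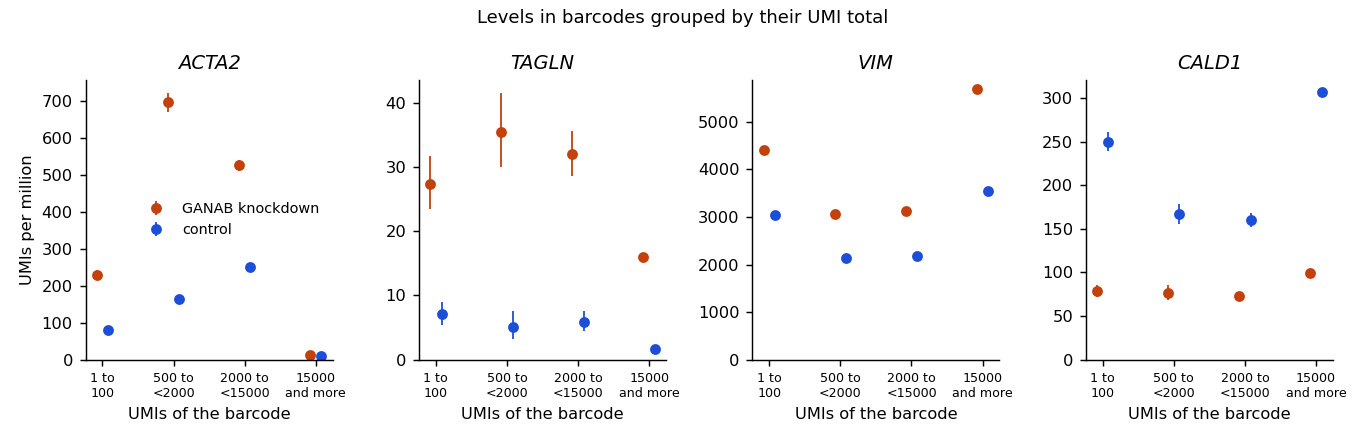
Levels in CPM for ACTA2, TAGLN, VIM and CALD1 in barcodes grouped by their UMI total, for the knockdown and control libraries with exact Poisson intervals. ACTA2 is at 695, 525 and 11.8 CPM in knockdown barcodes of 500 to under 2000, 2000 to under 15000, and 15000 or more UMIs, and CALD1 is lower in the knockdown library in each range.

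Markers of other cells are given because ACTA2, TAGLN and MYL9 are theirs too. No gene of the 8 on the fibroblast list reached 10 CPM in either library; the list summed to 12.4 CPM in knockdown and 15.0 CPM in control cells, and DCN and LUM had no UMI, for which a limit of 3 counts is 0.0226 CPM in the knockdown and 0.0140 CPM in the control. DCN was also nearly absent where collagen was high: knockdown barcodes of 500 to under 2000 UMIs held 7212 COL1A1 UMIs and 1 DCN UMI. It was not absent from barcodes of 1 to 100 UMIs, at 25.4 CPM in the knockdown and 44.9 CPM in the control library. At least 10 UMIs of the fibroblast list were held by 20 knockdown and 33 control cells, and the highest single cell had the list at 4155 CPM in the knockdown and 19049 CPM in the control. The 8 smooth muscle and pericyte markers summed to 14.2 and 14.9 CPM, of which SMTN made 9.61 and 12.4 CPM, while MYH11 was at 0.84 and 0.24 CPM and DES at 0.083 and 0.023 CPM. Endothelial markers summed to 0.32 and 0.11 CPM. The leukocyte list summed to 25.04 and 26.8 CPM, nearly all from CD68, and PTPRC, the defining leukocyte gene, had 2 and 8 UMIs. Of the 11 urothelial and epithelial markers, 3 reached 10 CPM in knockdown and 2 in control cells. The list summed to 490 and 367 CPM. Nearly all came from KRT8 and KRT18, at 195 and 273 CPM in knockdown and 155 and 202 CPM in control cells. KRT7 was at 18.4 and 8.09 CPM, KRT19 at 0.51 and 0.24 CPM and GATA3 at 1.56 and 1.05 CPM. EPCAM had 15 and 1 UMIs, CDH1 had 1 and 0, and UPK3A had none. The part of other cells' RNA in TAGLN and ACTA2 was not tested.

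Fewer genes passed the mark among marked cells. Of the 8 genes measured there, TPM1 was higher and CALD1 lower in the knockdown, where 3.58% of 7720 genes were higher and 4.59% lower, 8.16% in either direction. The median log2 ratio was 0.03 over the 8 genes and -0.09 over all genes. In cells with 0 or 1 marker UMIs, TAGLN and ACTA2 were higher and CALD1 lower among 9 measured genes, where 7.85% of genes were higher and 8.57% lower, 16.4% in either direction. ACTA2 there was at 18.7 CPM in the knockdown and 11.4 CPM in the control. Without the cell richest in smooth muscle UMIs in each library, which in the knockdown is the single cell described above, ACTA2 was at 11.2 CPM in the knockdown and 11.4 CPM in the control, a log2 ratio of -0.03 (-0.19 to 0.13), so its call rests on that cell. TPM2, at 787 and 1190.4 CPM (-0.60), was then just past the mark. Among marked G1 cells, VIM (5652 and 3636 CPM) and TPM1 (793 and 408 CPM) were higher and CALD1 lower among 9 measured genes, where 3.98% of genes were higher and 3.78% lower, 7.76% in either direction. CALD1 was the only gene of the 10 past the mark and in 1 direction in all, marked and unmarked cells.

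Among control cells alone, marked over other cells, TAGLN was higher and ACTA2 lower of the 9 genes measured, where 4.58% of 7747 genes were higher and 4.41% lower, 9.0% in either direction. TAGLN was at 11.4 CPM in the 241 marked cells and 1.02 CPM in the other 4144, and ACTA2 at 6.29 and 11.4 CPM. Among knockdown cells, marked over other cells, ACTA2 was lower and no gene higher of the 9 measured (9.29 and 18.7 CPM), where 0.29% of genes were higher and 0.514% lower, 0.803% in either direction. Without that single cell the other knockdown cells were at 11.2 CPM, a log2 ratio of -0.27 (-0.44 to -0.09), which is not past the mark. CALD1 in the knockdown (88.1 and 132 CPM, -0.58) came close to the mark. In the control, TPM2 (807 and 1191 CPM, -0.56) came close to the mark, and VIM (4103 and 3510 CPM, 0.23) did not. Near the marker's limit, 331 knockdown and 40 control cells held 2 or 3 of its UMIs, and 114 and 42 held 1. The 114 knockdown cells with 1 had CALD1 at 114 CPM and TAGLN at 7.85 CPM, and the 42 control cells with 1 had them at 309 and 2.58 CPM. The marked cells of both libraries are also part of the comparison over all cells, so these comparisons are not independent.

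**Figure D5:**
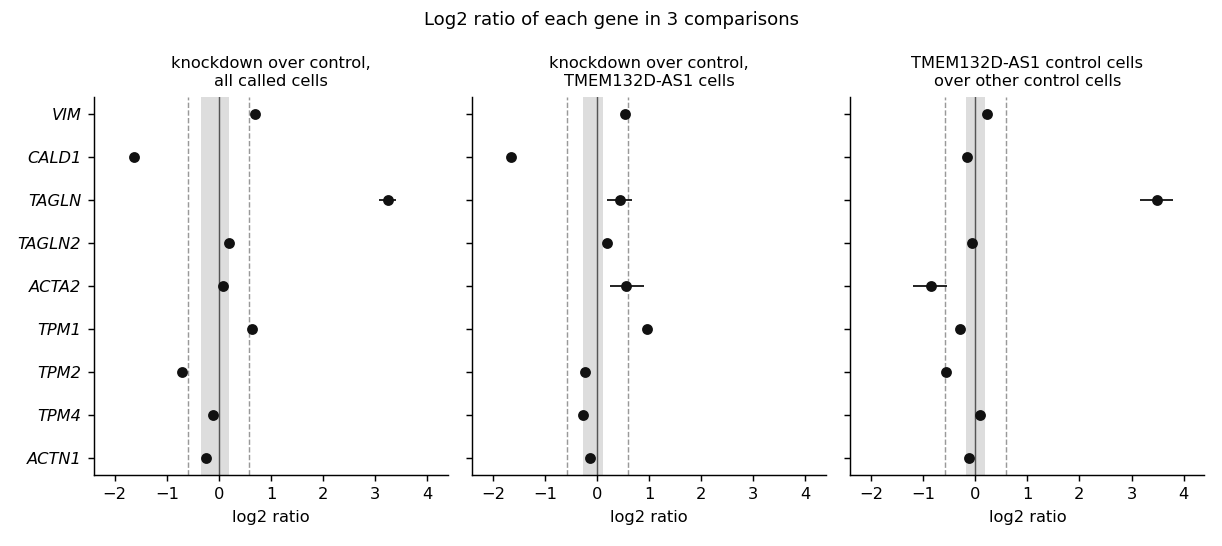
Log2 ratio of each gene with its counting interval in 3 comparisons: knockdown over control in all called cells, knockdown over control in TMEM132D-AS1 cells, and TMEM132D-AS1 control cells over other control cells. The grey band spans the quartiles of all genes measured, dashed lines mark 1.5-fold and MYL9 is not drawn; CALD1 is at -1.62, -1.66 and -0.15, and TAGLN at 3.24, 0.43 and 3.48.

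Among knockdown cells, the level of residual GANAB went with little difference in CALD1 or VIM. In the 1507 knockdown cells with 0 GANAB UMIs of 15000, the 823 with 1 and the 342 with at least 2, CALD1 was at 95.5, 105 and 105 CPM and VIM at 5797, 5604 and 5493 CPM. In these groups TAGLN was at 17.7, 13.4 and 14.7 CPM and ACTA2 at 10.4, 9.24 and 23.2 CPM, with the cell rich in ACTA2 not left out. Control cells split in the same way had CALD1 at 278, 312 and 314 CPM and VIM at 3435, 3507 and 3607 CPM. The steps in CALD1 and VIM were small beside the gaps between the libraries. A GANAB count of 0 UMIs at this depth does not mean no GANAB, and a relation to GANAB dose was not tested.

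Across cells within a library, some pairs of these genes varied together to a moderate degree and others did not. Pearson r of log2(thinned count + 1) between CALD1 and TPM4 was 0.34 over 2672 knockdown cells and 0.33 over 4385 control cells, and between CALD1 and TPM1 it was 0.35 and 0.21. TAGLN and CALD1 gave 0.31 and 0.05, and VIM and CALD1 0.07 and 0.15. TAGLN2 with TPM1 gave -0.10 and 0.03, TAGLN2 with CALD1 -0.02 and 0.01, and CALD1 with TPM2 0.25 and 0.04. Cells of a library share its preparation and its mix of phases, and counts as sparse as those of TAGLN hold r down. The gene most like CALD1 among 2219 compared was GLIPR1 (0.39 in the knockdown, 0.44 in the control). VIM was most like ACTG1 (0.41 and 0.30), TAGLN2 most like the actin monomer binder PFN1 (0.47 and 0.29) and TPM2 most like TMSB4X, thymosin beta-4 (0.33 and 0.48). TPM1 was most like VCL, the adhesion protein vinculin (0.33 and 0.24), TPM4 most like the integrin ITGB1 (0.39 and 0.33), and ACTN1 most like TPM4 (0.27 and 0.20). For TAGLN (CALD1), ACTA2 (TPM2) and MYL9 (ACTB) the highest mean r was 0.18, 0.17 and 0.04. The TAGLN mean joins 0.31 in the knockdown and 0.05 in the control, so it stands for neither library. The values of ACTA2 and MYL9 were too low to read.

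The rest of the cytoskeleton gives the setting. Of the actin isoforms, ACTG1 was lower over all cells, at 2804 CPM in the knockdown and 4234 CPM in the control, and ACTB was at 1824 and 2409 CPM. Of 11 measured genes of non-muscle myosin and its regulation, the heavy chain MYH9 (87.0 and 156 CPM) and the kinase MYLK (28.2 and 44.3 CPM) were lower and the light chain MYL6 (1383 and 920 CPM) was higher. None of these passed the mark in marked cells. Among 12 crosslinkers PDLIM5 was lower, and among 13 turnover genes the severing protein GSN was higher (107 and 59.0 CPM) and CAP1 (168 and 290 CPM) and ARPC1B lower. In marked cells CAP1 was the only gene of either list past the mark.

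Of 12 focal adhesion genes, TES (133 and 50.4 CPM) and LASP1 were higher, and VCL (122 and 196 CPM), ZYX and PARVA lower over all cells, while in marked cells TES alone passed, at 132 and 73.4 CPM. Of 7 other intermediate filament genes, KRT7 was higher and LMNB2 lower over all cells, and LMNB2 alone was lower in marked cells. Of 6 SRF, MRTF and TEAD genes, TEAD1 (55.8 and 88.2 CPM) and TEAD4 (15.9 and 28.4 CPM) were lower, and TEAD4 stayed lower in marked cells. Of 13 measured MRTF-SRF or YAP-TEAD targets outside the 10 genes, AXL and FHL1 were higher and CTGF, VCL and MYH9 lower. In marked cells CTGF was the 1 that passed, at 76.9 CPM in the knockdown and 184 CPM in the control. Of 10 TGF-beta genes, TGFBR1, TGFBR2, SMAD3 and TGFBI were higher and SMAD2 and SMAD4 lower over all cells, and in marked cells LTBP1 (49.4 and 24.4 CPM) and TGFBI (20.3 and 8.70 CPM) were higher. The list medians lay between -0.50 and 0.34 over all cells, beside -0.07 for all genes.

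Some of the 10 genes share their place with others. VIM-AS1 lies antisense to VIM, PCSK7 overlaps TAGLN on the opposite strand, STAMBPL1 and FAS overlap ACTA2, TPM1-AS overlaps TPM1, and DLGAP4-AS1 overlaps MYL9. No source used here says whether counting was strand-specific, so how reads of such pairs were assigned is not known here. VIM-AS1 was at 7.35 and 6.55 CPM and PCSK7 at 13.1 and 20.03 CPM in knockdown and control cells. Isoforms of the tropomyosins and of caldesmon, whose muscle and non-muscle forms differ in internal exons, are not resolved by 3' counts.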

How the data were processed

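The authors deposited raw UMI counts for each gene in each barcode. They used Cell Ranger 3.1.0 and GRCh38, per the submitters' processing notes. Per the labels, the chemistry was 10x Genomics 3' v3 with 10000 cells loaded on a channel. Each lists 6794880 barcodes, with 155064055 UMIs in the knockdown and 239857346 in the control library. Strand handling, the annotation and the use of a mouse reference were not given in the sources used here, so mouse reads may have been counted as human genes.

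From these counts, barcodes with at least 15000 UMIs and at most 20% mitochondrial UMIs were called as cells, which left out 2 knockdown and 1 control barcode over the mitochondrial limit. Doublets were not removed. Counts were summed per group and scaled to CPM. Single values carry exact Poisson, ratios conditional binomial and shares Clopper-Pearson intervals, at 95%, for counting error only. With 1 library per group there is no test. For shares, each cell was thinned to 15000 UMIs, which left out no called cell. Phases were scored on thinned counts with scanpy 1.11.5 (Python 3.11.15, numpy 2.4.6, scipy 1.17.1). By these scores 78 knockdown and 164 control cells lay within 0.02 of the cut between G1 and the cycling phases. Cells near the boundary of S and G2/M were not counted. The ratio code was tested on simulated counts.

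The text names the 10 genes, GANAB, TMEM132D-AS1, overlapping genes and the gene most like each member by mean r (at least 50 CPM in both libraries). It also names up to 4 genes per cytoskeletal list, those with the largest ratios in the direction of the list median. Other list genes past 1.5-fold were named after their values were seen. The members and the 9 lists were chosen with earlier results of these data known. Positions are from GENCODE, by gene identifier. A planned comparison of protein sequences was not run. Alternatives covered cell limits, scaling, the size rule, thinning, phase, the marker limit and left-out cells.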

Additional observations from a re-analysis of the deposited data

Results flagged for a closer look

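Barcodes below the cell limit, which the comparisons do not use, held TAGLN and ACTA2 at levels above the control library. In barcodes of 500 to under 2000 UMIs, TAGLN was at 35.4 CPM in the knockdown and 5.03 CPM in the control library, and in those of 2000 to under 15000 UMIs it was at 31.9 and 5.84 CPM. ACTA2 was at 695 CPM in the knockdown and 163 CPM in the control library in barcodes of 500 to under 2000 UMIs, and at 525 and 251 CPM in those of 2000 to under 15000 UMIs. In the same ranges the smooth muscle gene MYH11 was at 28.4 and 30.8 CPM in the knockdown library, against 5.03 and 2.77 CPM in the control library. The part of smooth muscle RNA in these values was not tested.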

How the results depend on the processing

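No paired analysis was possible because each group has 1 library. In the 3 comparisons run under up to 18 settings each, no log2 ratio past the mark changed sign. ACTA2 in unmarked cells, 0.71, was -0.03 without the cell with most smooth muscle UMIs in each library. Over all cells CALD1 ranged from -1.63 to -1.50, TAGLN from 3.16 to 3.61, VIM from 0.64 to 0.75, TPM1 from 0.63 to 0.71 and TPM2 from -0.92 to -0.64. At 2-fold, 1 gene was higher (TAGLN) and 1 lower (CALD1) over all cells, and 0 were higher in marked cells and 0 lower among marked control cells. In marked cells the count of higher genes was 2 with cells weighted equally (ACTA2, TPM1), median-of-ratios factors (VIM, TPM1), totals without mitochondrial and ribosomal genes (ACTA2, TPM1), non-cycling cells (VIM, TPM1), without the 5% of cells with most UMIs (ACTA2, TPM1) or with the marker counted after thinning (TAGLN, TPM1), and 3 with cells thinned to 15000 UMIs (TAGLN, ACTA2, TPM1). With no CPM minimum, 2 were lower there (CALD1, MYL9) and 2 higher among marked control cells (TAGLN, MYL9). Among marked control cells, 2 were lower (ACTA2, TPM2) with equal weights, thinned cells, non-cycling cells or at least 4 marker UMIs. None was lower there (0) with the marker counted after thinning, and with 50 CPM required 0 were higher and 0 lower. TAGLN in marked cells ranged from -0.30 to 0.69, and ACTA2 over all cells from -0.27 to 0.53, so neither kept its sign. Causes were not tested. The median of all genes was at -0.07, -0.09 and -0.01 in the 3 comparisons. Leaving out shared barcodes, or the cell with most smooth muscle UMIs in each library, was chosen after seeing the data. Depth limits MYL9, at 11 and 23 UMIs, for which no direction can be read.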
